A study of Mus musculus with 6 samples.

Results

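The immediate early genes outside the AP-1 family examined here were the 10 genes Egr1, Egr2, Egr3, Ier2, Ier3, Klf2, Klf4, Klf6, Zfp36 and Dusp1, taken by gene symbol from a table of 47643 genes. The measurements came from bulk RNA sequencing of liver tumors of FVB/N mice that carried LAP-tTA and tetO-MYC. In such mice the liver activator protein promoter drives a tetracycline-controlled activator in hepatocytes, so that a MYC transgene is silent under doxycycline and expressed once doxycycline is withdrawn. GSK3326595, which blocks the arginine methyltransferase PRMT5, was given to 1 group at a dose of 50 mg/kg/day over 2 weeks, and the other group received vehicle over the same time. All mice of both groups had been given doxycycline at 100 mg/L until 4 weeks of age and then had MYC switched on for 8 weeks. There were 3 GSK3326595 and 3 vehicle libraries, and the comparison asks how the level of these genes in MYC-driven tumors differed under PRMT5 inhibition. The labels number the replicates without saying that each was a separate animal. The p-values here therefore rest on sample-to-sample spread that may not be spread between animals.

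Immediate early genes are transcribed within minutes of a stimulus, without new protein synthesis, because their activators are already present and need only be switched on. Serum response factor with its ternary complex partners at CArG boxes, CREB at cyclic AMP response elements (CRE) and NF-kB at its own motif carry growth factor, hormone and cytokine signals to them. Their mRNAs are usually short-lived, often through AU-rich elements in the 3′ untranslated region (3′ UTR). In liver they respond to partial hepatectomy, to cytokines and to handling of the tissue. In bulk tumor RNA, fewer cells of a type and less RNA per cell cannot be told apart.

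Promoter windows of 300 bases, from RefSeq on GRCm38.p6 (the same assembly as the mm10 build of the counts), were used for 7 of the 10 members, matched by symbol, and none is used here for Egr1, Egr3 or Ier2. The windows are shown for 4 members because their letters hold the motifs through which such genes are known to be induced. They are written 5′ to 3′, with matches in capitals to any of the CArG box, the 8-base CRE TGACGTCA, the CRE core TGACG, the ETS core CCGGAA and the NF-kB motif, on either strand. The CRE core lies within the full CRE, so their matches overlap. Zfp36 is at chr7:28379179-28379478 on the minus strand, Dusp1 at chr17:26508423-26508722 on the minus strand, Egr2 at chr10:67537680-67537979 on the plus strand and Ier3 at chr17:35821463-35821762 on the plus strand.
Zfp36: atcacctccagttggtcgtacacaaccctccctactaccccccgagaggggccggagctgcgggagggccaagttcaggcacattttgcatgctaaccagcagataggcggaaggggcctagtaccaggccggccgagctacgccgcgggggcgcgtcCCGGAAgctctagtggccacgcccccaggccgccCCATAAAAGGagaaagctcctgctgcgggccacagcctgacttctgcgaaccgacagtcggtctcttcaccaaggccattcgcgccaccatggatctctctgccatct
Dusp1: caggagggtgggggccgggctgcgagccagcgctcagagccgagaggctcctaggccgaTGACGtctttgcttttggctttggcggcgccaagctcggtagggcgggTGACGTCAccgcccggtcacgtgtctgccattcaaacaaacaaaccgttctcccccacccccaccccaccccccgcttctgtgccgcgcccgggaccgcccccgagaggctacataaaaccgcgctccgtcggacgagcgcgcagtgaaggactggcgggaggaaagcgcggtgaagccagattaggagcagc
Egr2: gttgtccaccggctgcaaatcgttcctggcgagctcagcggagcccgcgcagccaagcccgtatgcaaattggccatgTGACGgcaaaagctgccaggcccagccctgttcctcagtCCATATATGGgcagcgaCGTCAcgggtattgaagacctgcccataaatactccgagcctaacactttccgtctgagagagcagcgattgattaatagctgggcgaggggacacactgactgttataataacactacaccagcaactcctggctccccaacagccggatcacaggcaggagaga
Ier3: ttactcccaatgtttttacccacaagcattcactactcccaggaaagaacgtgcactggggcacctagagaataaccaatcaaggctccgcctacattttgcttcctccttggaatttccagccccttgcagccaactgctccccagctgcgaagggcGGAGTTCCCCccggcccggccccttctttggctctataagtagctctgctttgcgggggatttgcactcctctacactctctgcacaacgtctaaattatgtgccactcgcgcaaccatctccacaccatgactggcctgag

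Zfp36 had a CArG box, CCATAAAAGG, at bases 193 to 202 of its window, counted from 1 at the 5′ end, and an ETS core at bases 159 to 164. Egr2 had the CArG box CCATATATGG at bases 118 to 127 of the window shown, with CRE cores at bases 79 to 83 and 135 to 139. Egr2 had other windows, which are not shown. That at chr10:67537316-67537615 held a different CArG box, CCTTTTTTGG, and ETS cores, and that at chr10:67535249-67535548 held none of the 5 motifs. The rest overlapped the window shown and held the same CArG box. Dusp1 had the full CRE at bases 108 to 115 and a further CRE core at bases 60 to 64. Ier3 had an NF-kB motif, GGAGTTCCCC, at bases 159 to 168. The windows of Klf2 and Klf4 each held 1 CRE core, and that of Klf6 held none of the 5 motifs. Among 32817 promoter windows of the same length, 1.63% held a CArG box, 1.79% the full CRE, 20.8% the CRE core, 14.9% the ETS core and 4.5% the NF-kB motif. A match describes these letters and is not a measured binding site.

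The 3′ UTRs, from GENCODE vM21, are shown as well because Zfp36 encodes tristetraprolin, which binds AU-rich elements and brings mRNAs to deadenylation. Each line gives 29 bases around the leftmost TATTTAT element of the longest annotated 3′ UTR, with the element in capitals and U written as T.
Ier3: tgtctaattaaTATTTATgTATTTATgta
Dusp1: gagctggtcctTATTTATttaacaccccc
Zfp36: agtgggcccttTATTTATgacgactttat
Klf6: gctacgtctctTATTTATgccttgaggac
Klf2: aaacagactgcTATTTATtggaccttagg

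The 3′ UTR of Ier3, of 613 bases, held 4 TATTTAT elements, Dusp1 held 3 in 690 bases, Zfp36 held 3 in 774 bases, Klf6 held 2 in 3111 bases and Klf2 held 1 in 737 bases. Egr1, Egr2, Egr3, Ier2 and Klf4 held none. Among 21020 protein-coding genes, 27.6% held at least 1. The shorter pentamer ATTTA occurred 8.16 times per kb in Ier3, 5.8 times in Dusp1 and 3.88 times in Zfp36, against 1.93 times per kb over all 3′ UTRs. Egr3 (2.65), Egr2 (2.5) and Klf6 (2.25) lay nearer to that value. Egr1 (1.64), Klf2 (1.36) and Klf4 (1.02) lay below it, and the pentamer was not found in the 3′ UTR of Ier2.

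The libraries held 25814339 to 33621083 expected counts. On the leading principal component of log2 CPM (read counts scaled to a common library size by the TMM method), which carried 38.1% of the variance, GSK3326595 replicate 2 stood apart at 103.1, with the other 5 libraries between -50.2 and 9.37. Hepatocyte markers fitted the labelled tissue, with all 6 above 0 in every library and a summed level of 6225 to 21069 CPM in GSK3326595 and 10979 to 27169 CPM in vehicle libraries. Markers of T cells summed to 11.1 to 26.9 CPM in GSK3326595 and 3.97 to 7.04 CPM in vehicle libraries. Of the 8, 5 passed the count filter, each higher in every GSK3326595 library than in any vehicle library, beside 6.72% of all genes tested. All 5 were higher at an edgeR unadjusted p under 0.05, beside 5.45% of all genes, with a median log2 difference of 2.465. After adjustment edgeR called 0 of them, and DESeq2 called 4 higher, beside 1.09% of all genes. Neutrophil markers summed to 210 CPM in vehicle replicate 2, against 0.18 to 13.3 CPM in the GSK3326595 libraries and 2.06 and 5.64 CPM in the other vehicle libraries. Of these 8 markers 4 passed the count filter, 0 differed at an unadjusted p under 0.05, and Ly6g was at 0 in GSK3326595 replicates 1 and 2 and in vehicle replicate 1. Prmt5, whose protein the compound inhibits, had 51.3, 96.0 and 129.9 CPM in GSK3326595 and 69.9, 48.9 and 84.9 CPM in vehicle libraries, a measure of its mRNA that does not check inhibition.

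No member passed edgeR's quasi-likelihood test after Benjamini-Hochberg adjustment over all 17012 genes tested, where 0% of genes were called lower and 0% higher. Adjusted p for the members ran from 0.526 to 0.959. Of the 9 members tested, Zfp36, Dusp1 and Ier2 were lower at an unadjusted p under 0.05 and 0 were higher, beside 3.81% of all genes tested that were lower and 5.45% that were higher at that level. In 6 of the 9 the log2 difference was below 0, beside 46.9% of all genes, and the members' median log2 difference was -0.80, beside 0.03 over all genes tested. In 0 of the 9 were the groups free of overlap, where 7.66% of all genes lay wholly lower and 6.72% wholly higher in GSK3326595. DESeq2 also called 0 members after adjustment (smallest adjusted p 0.289), beside 0.588% of genes called lower and 1.09% called higher, and gave the same 3 genes an unadjusted p under 0.05, where 4.26% of genes were lower and 7.22% higher. The count of 3 came to 0 without GSK3326595 replicate 2, GSK3326595 replicate 3, vehicle replicate 1 or vehicle replicate 2, and by limma-voom with all 6 libraries.

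**Figure D1:**
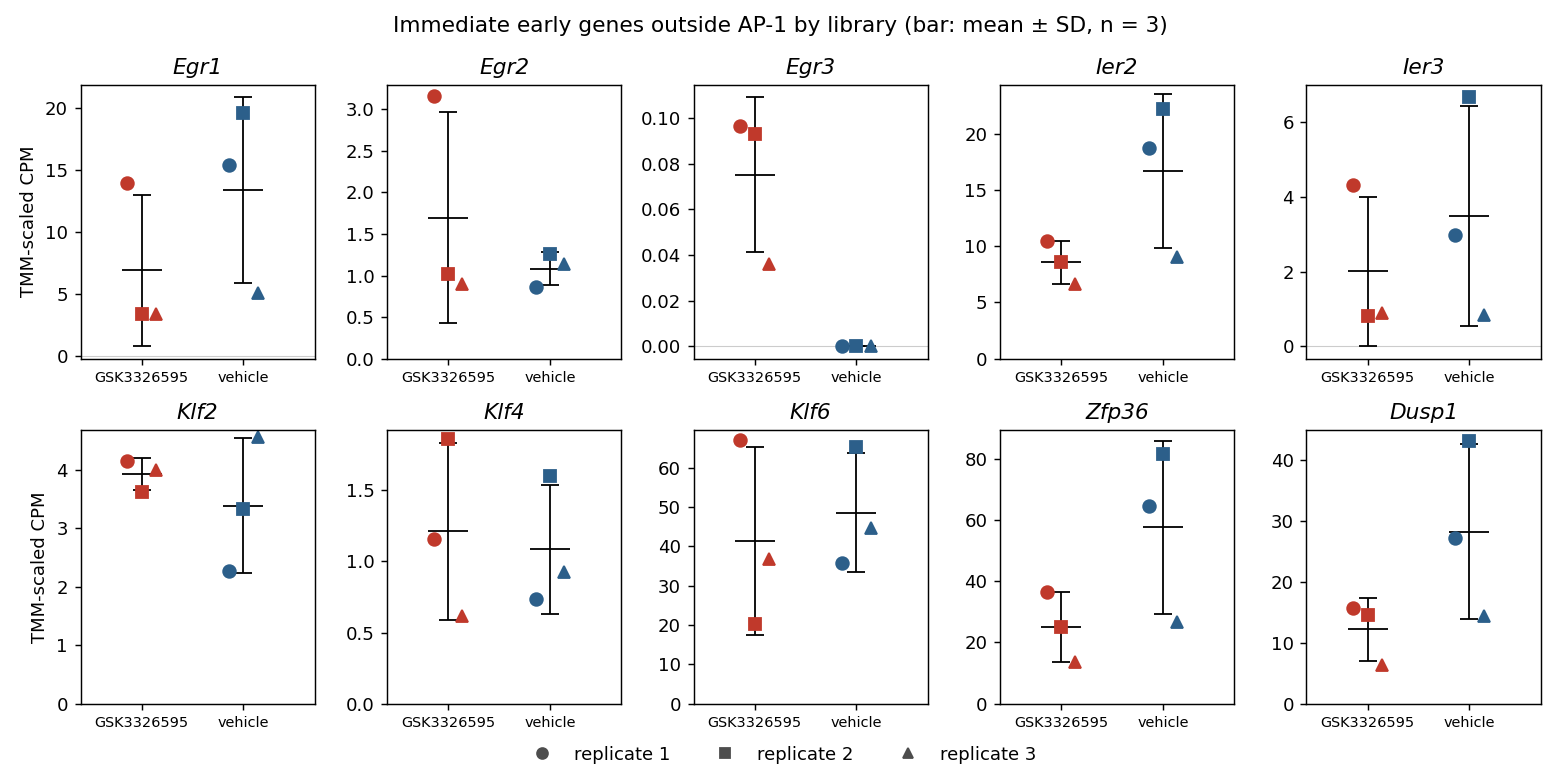
TMM-scaled CPM (vertical axis) of each member in the 3 GSK3326595 and 3 vehicle libraries, with the mean and SD of each group as bars and replicate numbers as symbols. The groups overlap in all 9 tested members, and Egr3 is at 0 in the vehicle libraries with at most 3 counts in any GSK3326595 library.

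The lowest mean values relative to vehicle were those of the feedback genes, which end the response they belong to. Zfp36 (ENSMUSG00000044786.6; chromosome 7, 28376784 to 28380253, minus strand) had 36.5, 25.1 and 13.6 CPM in GSK3326595 libraries, against 64.6, 81.6 and 26.6 CPM in vehicle libraries. Vehicle replicates 1 and 2 were high, while vehicle replicate 3 lay within the range of the treated libraries. The means were 25.1 ± 11.5 CPM in GSK3326595 and 57.6 ± 28.2 CPM in vehicle libraries (SD, n = 3 each), with a log2 difference of -1.20 ± 0.50 (SE; edgeR unadjusted p = 0.0496, adjusted p = 0.539). Without each library in turn that difference ran from -1.57 without GSK3326595 replicate 1 to -0.86 without vehicle replicate 2, and its unadjusted p from 0.0104 without vehicle replicate 3 to 0.155 without vehicle replicate 2. An antisense gene, Gm44710, overlaps the annotated gene, but the deposited counts held no gene of that symbol, so no value is given for it. The libraries were stranded, but no source used here says if strand was taken into account in counting. Antisense reads may therefore not have been told apart from those of Zfp36.

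Dusp1 encodes a phosphatase that switches off p38, JNK and ERK kinases in the nucleus (ENSMUSG00000024190.6; chromosome 17, minus strand, 26505590 to 26562128 in GENCODE vM21 and 26505591 to 26508472 in RefSeq). It had 15.7, 14.6 and 6.28 CPM in GSK3326595 libraries, against 27.1, 43.1 and 14.4 CPM in vehicle libraries. Vehicle replicate 3 again sat beside the treated libraries, just under GSK3326595 replicates 1 and 2. They averaged 12.2 ± 5.15 CPM in GSK3326595 and 28.2 ± 14.4 CPM in vehicle libraries (SD, n = 3 each), and the log2 difference was -1.21 ± 0.50 (SE; edgeR unadjusted p = 0.0462, adjusted p = 0.534). It was below 0 in each of the 6 fits that left out a library and was nearest to 0, at -0.77, without vehicle replicate 2. The longer GENCODE model of Dusp1 reaches into Ergic1 on the other strand, which averaged 106 ± 14.4 CPM in GSK3326595 and 137 ± 22.7 CPM in vehicle libraries.

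Ier2, a nuclear protein of the IER family, showed the smallest SE of the members with an unadjusted p under 0.05 (ENSMUSG00000053560.4; chromosome 8, 84661331 to 84662852, minus strand). It had 10.5, 8.62 and 6.64 CPM in GSK3326595 libraries, against 18.7, 22.2 and 9.01 CPM in vehicle libraries. Only GSK3326595 replicate 1 exceeded vehicle replicate 3, so the overlap rested on that pair. The log2 difference was -0.96 ± 0.38 (SE; edgeR unadjusted p = 0.041, adjusted p = 0.526), from -1.22 without vehicle replicate 3 to -0.70 without vehicle replicate 2.

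Ier3, a short-lived membrane protein tied to survival under TNF and NF-kB signalling, was scarcer and more variable (ENSMUSG00000003541.6; chromosome 17, 35821684 to 35822923, plus strand). It had 4.32, 0.806 and 0.902 CPM in GSK3326595 libraries, against 2.99, 6.67 and 0.835 CPM in vehicle libraries, from 25 to 196 counts a library. Each group held high and low libraries, with a 5.36-fold range within GSK3326595 and a 7.98-fold range within vehicle. The log2 difference was -0.80 ± 0.92 (SE; edgeR adjusted p = 0.84), and it was 0.069 without vehicle replicate 2.

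Among the EGR zinc finger transcription factors, which bind GC-rich promoter sites, Egr1 had the most mRNA (ENSMUSG00000038418.7; chromosome 18, 34859823 to 34864984, plus strand). It had 13.9, 3.35 and 3.39 CPM in GSK3326595 libraries, against 15.4, 19.6 and 5.10 CPM in vehicle libraries. GSK3326595 replicate 1 stood with vehicle replicates 1 and 2, and vehicle replicate 3 stood nearer to GSK3326595 replicates 2 and 3. The log2 difference was -0.95 ± 0.72 (SE; edgeR unadjusted p = 0.231, adjusted p = 0.729), and it depended on single libraries. Without GSK3326595 replicate 1 it was -1.99 (edgeR unadjusted p = 0.0196), and the smallest adjusted p over the 6 fits that left out a library was 0.456. It was -0.57 without vehicle replicate 2 (unadjusted p = 0.504), -0.59 without GSK3326595 replicate 2 (unadjusted p = 0.467) and -0.61 without GSK3326595 replicate 3 (unadjusted p = 0.472).

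Egr2, known for its part in myelination and in T cell tolerance, lay the other way (ENSMUSG00000037868.15; chromosome 10, 67535475 to 67542188, plus strand). It had 3.16, 1.02 and 0.902 CPM in GSK3326595 libraries, against 0.86, 1.26 and 1.13 CPM in vehicle libraries. GSK3326595 replicate 1 alone, with 98 counts, was high, and the other 5 libraries held 25 to 38 counts. The log2 difference of 0.64 ± 0.55 (SE; edgeR adjusted p = 0.762) became -0.17 without that library. Egr3 (ENSMUSG00000033730.3; chromosome 14, 70077203 to 70082614, plus strand) had 3, 3 and 1 counts in GSK3326595 libraries and 0 in each vehicle library. It was left out by the filter on low counts, and since a count of 0 allows up to 3 counts a library, no fold is given.

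The KLF zinc finger factors did not share a direction. Klf2, a factor of endothelial quiescence and of naive T cells (ENSMUSG00000055148.7; chromosome 8, 72319033 to 72321656, plus strand), had 4.16, 3.63 and 4.00 CPM in GSK3326595 libraries, against 2.26, 3.33 and 4.56 CPM in vehicle libraries. The treated libraries lay within the vehicle range, and the log2 difference was 0.21 ± 0.32 (SE; edgeR adjusted p = 0.893), turning to -0.011 without vehicle replicate 1. Klf4, one of the pluripotency factors (ENSMUSG00000003032.8; chromosome 4, 55527143 to 55532466, minus strand), had 1.16, 1.86 and 0.613 CPM in GSK3326595 libraries, against 0.733, 1.60 and 0.925 CPM in vehicle libraries. With 17 to 60 counts a library, its log2 difference of 0.16 ± 0.51 (SE; edgeR adjusted p = 0.959) turned to -0.25 without GSK3326595 replicate 2 and -0.058 without vehicle replicate 1. Klf6, a factor of injured liver and activated stellate cells (ENSMUSG00000000078.6; chromosome 13, 5861482 to 5870394, plus strand), had 67.1, 20.2 and 36.9 CPM in GSK3326595 libraries, against 35.7, 65.3 and 44.8 CPM in vehicle libraries. The highest and the lowest value both came from treated libraries, and the log2 difference was -0.23 ± 0.45 (SE; edgeR adjusted p = 0.927), or 0.14 without GSK3326595 replicate 2 and 0.038 without vehicle replicate 2.

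**Figure D2:**
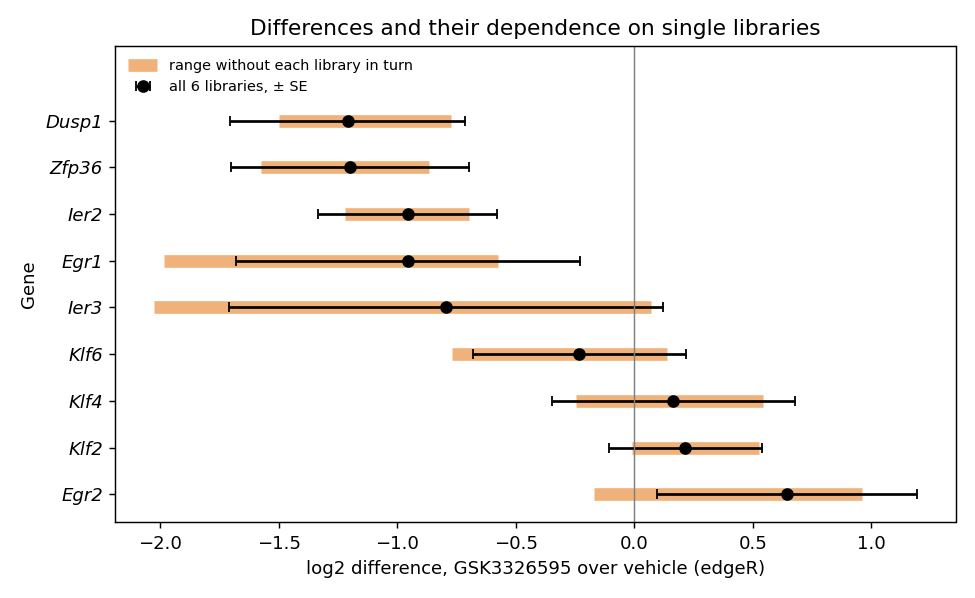
Log2 difference of each tested member, GSK3326595 over vehicle, with its SE (horizontal axis, black) and the range over the fits without each library in turn (orange). The orange range stays below 0 for Dusp1, Zfp36, Ier2 and Egr1 and crosses 0 for Ier3, Klf6, Klf4, Klf2 and Egr2.

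The highest library of each group was the same for most members. GSK3326595 replicate 1 held the highest treated value of 8 of the 9 tested members, and vehicle replicate 2 the highest vehicle value of 8. The mean deviation of the 9 members from their own mean log2 CPM was 0.45, -0.45 and -0.78 in the GSK3326595 libraries and 0.22, 0.85 and -0.29 in the vehicle libraries. Vehicle replicate 2 was also the library with the high neutrophil markers, and it was the highest of all 6 libraries for Egr1, Ier2, Ier3, Zfp36 and Dusp1. Without it, the log2 differences of Zfp36, Dusp1 and Ier2 were -0.86, -0.77 and -0.70 and the members' median was 0.038. Without GSK3326595 replicate 2, which stood apart on the leading component, they were -1.16, -1.33 and -0.92, and the median was -0.39. Hepatocyte markers summed to 19704, 21069 and 6225 CPM in the GSK3326595 libraries and 22872, 27169 and 10979 CPM in the vehicle libraries. Like the members' mean, that sum was highest in vehicle replicate 2 and lowest in GSK3326595 replicate 3. Unlike that mean, it was higher in GSK3326595 replicate 2 than in GSK3326595 replicate 1. The part of neutrophils or hepatocytes in the members' values was not tested.

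**Figure D3:**
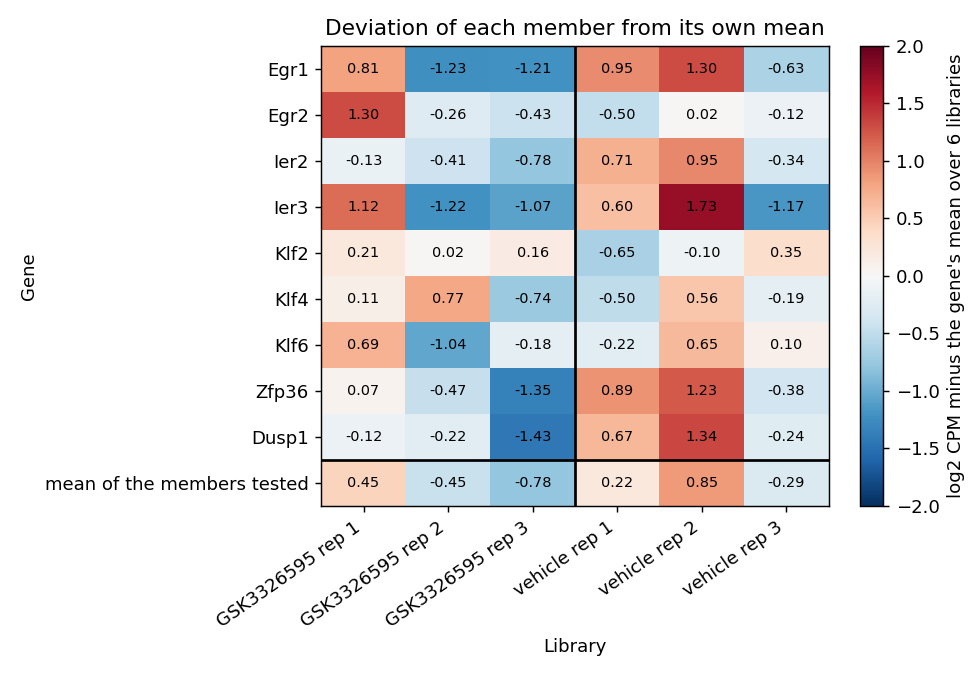
Deviation of log2 CPM (prior count 2) from each gene's mean over the 6 libraries, for the 9 tested members (rows) and their mean (bottom row), GSK3326595 libraries left of the line and vehicle libraries right of it. GSK3326595 replicate 1 (0.45) and vehicle replicate 2 (0.85) have the highest means of their groups.

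The summed level of the 10 members was 157, 79.3 and 73.2 CPM in the GSK3326595 libraries and 168, 245 and 107 CPM in the vehicle libraries. Klf6 and Zfp36 made up most of it in every library. Klf6 gave 42.9%, 25.4% and 50.4% of the sum in GSK3326595 and 21.2%, 26.7% and 41.7% in vehicle libraries. Zfp36 gave 23.3%, 31.7% and 18.5% in GSK3326595 and 38.3%, 33.3% and 24.7% in vehicle libraries. GSK3326595 replicate 1 and vehicle replicate 1 had near sums made up differently, with more Klf6 in the treated library and more Zfp36 in the vehicle library.

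**Figure D4:**
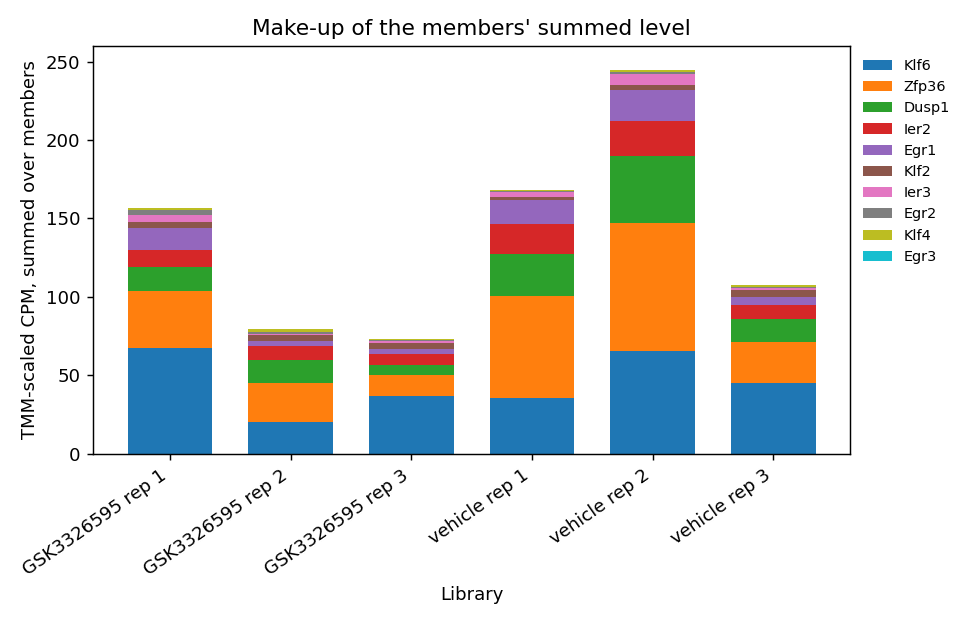
TMM-scaled CPM summed over the 10 members (vertical axis, from 0) in each library, coloured by gene. The sum is highest in vehicle replicate 2 at 245 CPM and lowest in GSK3326595 replicate 3 at 73.2 CPM, and Klf6 with Zfp36 makes up the largest part of each bar.

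Levels between genes were compared per kb of exon, as the mean and SD of CPM per kb over all 6 libraries. Zfp36 (11.9 ± 7.56) and Klf6 (10.3 ± 4.17) were highest, followed by Ier2 (8.29 ± 4.15), Dusp1 (6.10 ± 3.94), Ier3 (2.44 ± 2.12), Egr1 (2.26 ± 1.57) and Klf2 (1.98 ± 0.436). Egr2 (0.409 ± 0.259), Klf4 (0.377 ± 0.162) and Egr3 (0.00854 ± 0.0106) were lowest. From Zfp36 to Klf2 each pair of neighbours in that order differed by less than the larger SD of the pair, although the step from Dusp1 to Ier3 exceeded the SD of Ier3. The order was not the same in both groups. Klf6 averaged 9.43 ± 5.42 CPM per kb and Zfp36 7.22 ± 3.31 in GSK3326595 libraries, against 11.1 ± 3.46 for Klf6 and 16.6 ± 8.12 for Zfp36 in vehicle libraries (SD, n = 3 each). Klf2, at 2.13 ± 0.148 CPM per kb, stood above Ier3 (1.78 ± 1.77) and Egr1 (1.54 ± 1.36) in GSK3326595 libraries, whereas in vehicle libraries Klf2 (1.83 ± 0.624) stood below Ier3 (3.09 ± 2.61) and Egr1 (2.98 ± 1.66), within the spread between libraries. The steps from Klf2 to Egr2 and from Klf4 to Egr3 were larger, with ranges over the libraries that did not meet.

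The AP-1 genes, the immediate early family that dimerizes as JUN and FOS proteins, had a median log2 difference of -0.96 over 7 genes. Of these 3 were lower and 0 higher at an unadjusted p under 0.05, beside 3.81% and 5.45% of all genes tested. In 4 of 7 all GSK3326595 libraries lay under all vehicle libraries, beside 7.66% of all genes. DESeq2 called 2 of the 7, Jund and Jun, lower after adjustment, beside 0.588% of all genes. Jund had 12.9, 10.9 and 14.8 CPM in GSK3326595 libraries, against 31.1, 30.6 and 29.0 CPM in vehicle libraries. Jun had 55.3, 30.5 and 38.5 CPM in GSK3326595 libraries, against 92.2, 94.6 and 74.9 CPM in vehicle libraries. In Jund, Jun, Fos and Fosb vehicle replicate 3 stayed above every treated library. In Junb, Fosl1 and Fosl2, as in Egr1, Ier2, Ier3, Zfp36 and Dusp1, it lay under at least 1 of them. The difference between the families was not tested.

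Of 30 other immediate early genes outside AP-1, 28 were tested, with a median log2 difference of -0.13. At an unadjusted p under 0.05, 3 were lower and 0 higher, beside 3.81% and 5.45% of all genes tested. The groups lay apart in 3 of the 28, 2 lower and 1 higher, beside 7.66% and 6.72% of all genes. Csrnp1, a nuclear protein induced by AXIN1 in human cells, had 4.84, 5.15 and 5.70 CPM in GSK3326595 libraries, against 12.4, 17.5 and 8.98 CPM in vehicle libraries, with no overlap (log2 difference -1.31 ± 0.30, edgeR adjusted p = 0.455). Maff, a small MAF transcription factor, had 16.8, 5.09 and 10.1 CPM in GSK3326595 libraries, against 55.4, 60.0 and 19.0 CPM in vehicle libraries, also with no overlap (-2.07 ± 0.58, edgeR adjusted p = 0.485). DESeq2 called these 2 genes lower after adjustment, and 0 others of the list, beside 0.588% of all genes called lower. Btg2, an antiproliferative cofactor of mRNA deadenylation, had 44.7, 14.1 and 22.4 CPM in GSK3326595 libraries, against 84.6, 154 and 33.3 CPM in vehicle libraries (-1.74 ± 0.64, edgeR adjusted p = 0.522). As for Zfp36, vehicle replicate 2 was the highest library for Btg2 and vehicle replicate 3 overlapped the treated libraries.

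**Figure D5:**
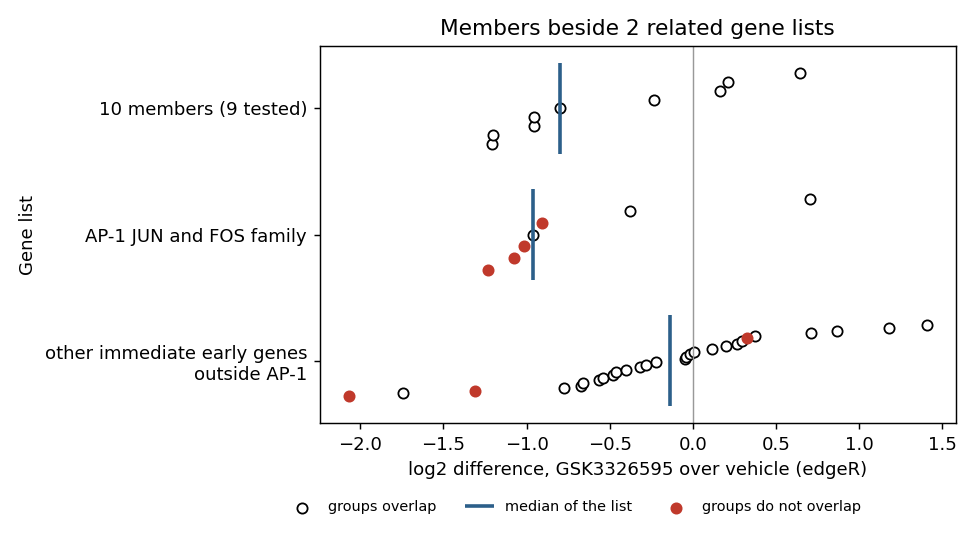
Log2 differences, GSK3326595 over vehicle, of the 9 tested members, 7 AP-1 genes and 28 other immediate early genes, with each list's median (blue line) at -0.80, -0.96 and -0.13. Filled points are genes whose groups do not overlap, 0 of 9, 4 of 7 (all lower) and 3 of 28 (2 lower, 1 higher). Over all genes tested, 7.66% lay wholly lower and 6.72% wholly higher in GSK3326595.

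Genes upstream and beside the members showed few differences at an unadjusted p under 0.05, where 3.81% of all genes tested were lower and 5.45% higher. Of 6 genes for serum response factor and its partners and 6 of the CREB family, 0 passed in either direction, with medians of -0.02 and 0.14. Srf itself had 18.3, 21.0 and 23.1 CPM in GSK3326595 libraries, against 20.9, 22.3 and 22.9 CPM in vehicle libraries. Likewise 0 of 15 genes of ERK pathway kinases and receptors (median log2 difference 0.13), 11 of p38 and JNK kinases (0.02) and 8 of IER3 and TNF stress partners (0.10) passed. Of 9 other MAP kinase phosphatases 1 was lower, Dusp8, a JNK and p38 phosphatase, with 3.22, 0.837 and 2.99 CPM in GSK3326595 libraries against 5.48, 7.25 and 8.09 CPM in vehicle libraries (log2 difference -1.56 ± 0.51, edgeR adjusted p = 0.522). Of 9 tested ERK feedback genes 1 was higher, Spred1, an inhibitor of RAS to RAF signalling, with 20.1, 16.3 and 8.48 CPM in GSK3326595 libraries against 4.17, 8.88 and 7.67 CPM in vehicle libraries (1.12 ± 0.42, edgeR adjusted p = 0.524).

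Relatives and partners of the members were counted in the same way. Of 11 other KLF genes tested 0 passed in either direction (median log2 difference -0.13), and Klf10 had 37.5, 31.3 and 31.0 CPM in GSK3326595 libraries, against 27.1, 26.7 and 25.6 CPM in vehicle libraries, with no overlap (0.33 ± 0.16, edgeR adjusted p = 0.587). It was the only 1 of the 11 whose groups lay apart, beside 6.72% of all genes wholly higher in GSK3326595. Among 10 tested paralogs and deadenylation partners of Zfp36, Cnot8, a deadenylase subunit of the CCR4-NOT complex, alone passed, as higher, with 80.5, 76.2 and 68.0 CPM in GSK3326595 libraries, against 59.1, 54.9 and 60.3 CPM in vehicle libraries (0.37 ± 0.15, edgeR unadjusted p = 0.0433, adjusted p = 0.533). Zfp36l1, a paralog, had 43.2, 32.5 and 19.9 CPM in GSK3326595 libraries, against 46.9, 61.4 and 30.8 CPM in vehicle libraries (-0.54 ± 0.36, edgeR adjusted p = 0.685). Zfp36l2, another paralog, had 39.2, 41.5 and 43.8 CPM in GSK3326595 libraries, against 38.1, 39.05 and 43.1 CPM in vehicle libraries (0.05 ± 0.15, edgeR adjusted p = 0.957). Of 10 mRNAs known to be bound by tristetraprolin 5 could be tested and 0 passed. Among them Tnf had 2.26, 0.589 and 0.397 CPM in GSK3326595 libraries against 0.414, 0.272 and 0.448 CPM in vehicle libraries (1.51 ± 0.71, edgeR adjusted p = 0.569). Tnf held 70 counts in GSK3326595 replicate 1 and 8 to 19 in each other library. Without each library in turn its log2 difference ran from 0.38 to 1.92. Of 4 tested EGR cofactors 0 passed (median -0.17), nor did any of 8 genes induced by glucocorticoids, hormones that also induce Dusp1 (median -0.12). Endothelial genes activated by KLF2 had log2 differences above 0 in 8 of 8 by edgeR (median 0.37), beside 53.1% of all genes tested, with 0 of them past an unadjusted p of 0.05. Nqo1 was below 0 by limma-voom (-0.036), and Nqo1, Thbd, Tek and Hmox1 were each below 0 in at least 1 fit that left out a library. Endothelial markers as a list had a median of 0.55.

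Marker levels of other cell types in the tumors were as follows. Endothelial markers, of which 0 of 8 passed at an unadjusted p under 0.05, summed to 118 to 244 CPM in GSK3326595 and 96.9 to 169 CPM in vehicle libraries. Macrophage markers, also 0 of 8, summed to 147 to 322 CPM in GSK3326595 and 112 to 195 CPM in vehicle libraries. Stellate cell and fibroblast markers, with 2 of 8 higher beside 5.45% of all genes tested, summed to 586 to 786 CPM in GSK3326595 and 133 to 529 CPM in vehicle libraries. GSK3326595 replicate 1, the library with the highest Egr2 and Klf6, was the highest in macrophage markers, at 322 CPM. No marker of these lists was at 0 in all libraries, and the part of these cells in the members' values was not tested.

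The genes whose pattern was most like the members' were sought among 11037 other genes with a mean of at least 5 CPM. Likeness was the root mean square difference, over the 6 libraries, between a gene's deviation from its mean log2 CPM and the members' mean deviation. The 5 nearest were Bcl2l1, an inhibitor of apoptosis (0.10), Gm38372 (0.12), Zyx, a focal adhesion protein (0.13), 5430405H02Rik (0.14) and Plod1, a collagen lysyl hydroxylase (0.15). Bcl2l1 had 44.5, 23.9 and 18.1 CPM in GSK3326595 libraries, against 30.7, 56.8 and 25.3 CPM in vehicle libraries. Like the members' mean, it was high in GSK3326595 replicate 1 and highest in vehicle replicate 2.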

How the data were processed

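Stranded total RNA libraries were made from liver tumors, per the labels' protocols. The authors deposited expected counts per gene, not scaled to library size; the tools named are RSEM, STAR, Picard and cutadapt, with no versions, and the build is mm10, per the submitters' processing notes. Of the values, 12.3% were not whole (tolerance 0), and all were rounded. Coordinates come from GENCODE vM21 of the same assembly, by unversioned ID (47224 of 47643 matched).

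Groups came from the labels. Genes passing filterByExpr (minimum count 10), 17012 in all, were TMM-scaled and tested with edgeR 4.0.16's two-sided quasi-likelihood test (R 4.3.3), adjusted by Benjamini-Hochberg, with a threshold of 0.05 and a common biological coefficient of variation of 0.409. SE is the absolute log2 difference over the square root of F. CPM are TMM-scaled; log2 CPM used a prior count of 2. Alternatives were RLE and total-count scaling, other filters, DESeq2 1.42.0 on the same genes, limma-voom (limma 3.58.1), a replicate block, removal of mitochondrial and rRNA genes, and leaving out each library. The edgeR, DESeq2 and limma-voom fits were tested on simulated counts. Counting depth was 25814339 to 33621083 per library. The members and lists were chosen with earlier results of these data known. All members were named, and from most lists up to 3 genes of smallest p. Beyond that rule all 7 AP-1 genes were named. So were Nqo1, Thbd, Tek and Hmox1, for fits in which each was below 0. Srf and Zfp36l2 were chosen after their values were seen.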

Additional observations from a re-analysis of the deposited data

How the results depend on the processing

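The counts of 0 genes called higher and 0 called lower by edgeR stood under each edgeR alternative and by limma-voom, while DESeq2 gave 186 higher and 100 lower genes. Why the tools differ was not tested. At an unadjusted p under 0.05, the 927 higher genes of 17012 tested were 1547 of 27765 tested with no filter on low counts. Without each library in turn they were 347 to 1629. The 648 lower genes, 3.81% of those tested, were 715 with no filter, 2.58% of the larger number tested. They were 430 with total counts only and 241 to 961 without each library. With total counts only the median of all genes was 0.12. The count of 3 members lower was 2 with total counts only (Zfp36 lost), 1 (Ier2) with at least 1 CPM in 3 libraries, 0 by limma-voom, and 0 to 3 without each library. Without GSK3326595 replicate 1 the 3 were Egr1, Ier2 and Zfp36, and Dusp1 passed in 1 of the 6 fits that left out a library, that without vehicle replicate 3. Egr1 ran from -1.99 to -0.57 without each library. The members' median of -0.80 ran from -1.22 without vehicle replicate 3 to 0.038 without vehicle replicate 2, the only alternative run that turned its sign. Leaving out each library gave Egr2 from -0.17 (without GSK3326595 replicate 1) to 0.96, Ier3 from -2.03 to 0.069 (without vehicle replicate 2), Klf2 from -0.011 (without vehicle replicate 1) to 0.53, Klf4 from -0.25 (without GSK3326595 replicate 2; -0.058 without vehicle replicate 1) to 0.54, and Klf6 from -0.77 to 0.14 (without GSK3326595 replicate 2; 0.038 without vehicle replicate 2). For these changes of sign the cause was not tested. Deviations of same-numbered libraries from their group means correlated by -0.07, 0.07 and 0.32 over genes, so the numbers were not taken to pair the samples. With the replicate block 0 genes were called, and 638 were higher and 779 lower at an unadjusted p under 0.05. The members' count was again 3, with a median of -0.72. In that edgeR fit the SE was 0.240 for Zfp36 and 0.245 for Dusp1, against 0.501 and 0.496 without the block. Their unadjusted p was 0.00472 and 0.00481, and their adjusted p was 0.514 for each. For Ier2 the unadjusted p was 0.0257 and the adjusted p 0.565. Egr3 entered only the fit with no filter, on 7 counts in all. Depth limits Egr2, Ier3 and Klf4, with under 100 counts in most libraries.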
